A study of Homo sapiens with 3 samples.

Results

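The ID family of inhibitors of differentiation was examined in TC32, an established Ewing sarcoma cell line that carries the fusion protein EWS-FLI1. The family consists of 4 genes, ID1, ID2, ID3 and ID4, of 22714 gene names in the expression tables, and each gene matched 1 locus under its own name. The family was picked on measured values, because ID2 differed between the compound and the knockdown, so that difference is given as a description. RNA-seq was made of 3 libraries, 1 per group. The first came from cells given the compound called YK in its library title, at 3 µM for 15 h, and the plots carry the full name. YK is reported to keep the helicase DHX9 from binding EWS-FLI1. The second was an EWS-FLI1 knockdown library (titled shEF, with dEF in its column header, a difference the labels do not explain), and the third a control library (titled WT). DMSO was the vehicle of YK. Whether control cells got vehicle or a control hairpin is not stated, nor are the hairpin and the length of the knockdown. Each group being a single library, no test was made, and higher or lower refers to these libraries alone.

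ID proteins have a helix-loop-helix domain for pairing but lack the basic region that binds DNA. They pair with E proteins such as TCF3, TCF4 and TCF12 and keep them from binding DNA with lineage factors, which holds back differentiation and loss of proliferation. Bone morphogenetic proteins (BMP), acting through SMAD1, SMAD5 and SMAD4, are the best known inducers of ID1, ID2 and ID3. ID2 also binds the hypophosphorylated retinoblastoma protein, and it has been described as a gene that EWS-ETS fusions raise in Ewing tumour cells.

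The 250 bases before the annotated start of each gene are shown because the 4 promoters differ in the short elements they hold. Whether these elements bear on the expression values was not tested. They are reference sequence from RefSeq, build GRCh38.p14, 5′ to 3′ on the strand of the gene, and capitals mark the letters GGAA or their complement TTCC, the core that ETS factors such as FLI1 recognise. ID2 lies at chr2:8681806-8682055 on the plus strand, ID3 at chr1:23559502-23559751 on the minus strand, ID1 at chr20:31605039-31605288 on the plus strand and ID4 at chr6:19837120-19837369 on the plus strand.
ID2: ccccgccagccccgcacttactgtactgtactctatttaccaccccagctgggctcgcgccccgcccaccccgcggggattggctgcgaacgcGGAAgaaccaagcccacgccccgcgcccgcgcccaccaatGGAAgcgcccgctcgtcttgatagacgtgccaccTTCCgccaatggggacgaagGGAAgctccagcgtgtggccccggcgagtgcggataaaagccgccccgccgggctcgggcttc
ID3: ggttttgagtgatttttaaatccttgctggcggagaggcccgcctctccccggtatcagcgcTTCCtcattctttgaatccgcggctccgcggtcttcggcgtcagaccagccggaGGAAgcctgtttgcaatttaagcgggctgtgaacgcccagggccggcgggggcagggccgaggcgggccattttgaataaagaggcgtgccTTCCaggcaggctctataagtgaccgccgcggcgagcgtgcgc
ID1: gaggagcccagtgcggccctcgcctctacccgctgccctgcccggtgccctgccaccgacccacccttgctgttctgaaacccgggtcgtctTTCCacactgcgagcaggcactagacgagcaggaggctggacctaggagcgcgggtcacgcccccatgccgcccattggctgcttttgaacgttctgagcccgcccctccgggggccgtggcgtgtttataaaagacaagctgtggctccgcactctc
ID4: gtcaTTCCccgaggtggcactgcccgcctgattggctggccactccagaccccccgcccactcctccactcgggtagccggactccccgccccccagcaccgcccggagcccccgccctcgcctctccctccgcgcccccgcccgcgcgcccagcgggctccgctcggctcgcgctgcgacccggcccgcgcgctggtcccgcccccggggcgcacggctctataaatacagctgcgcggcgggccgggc

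On both strands together, GGAA was found 4 times before ID2, 3 times before ID3, and 1 time each before ID1 and ID4. No match overlapped another. Of 35116 promoter windows of the same length, 92.7% held at least 1 GGAA and 55.1% at least 3, with a median of 3, so the count before ID2 and ID3 is ordinary for a promoter. The letters CCAAT were found 3 times before ID2, at -172, -122 and -78 from the start, 1 time each before ID1 and ID4, and not before ID3, and 2.93% of windows held at least 3. A TATAAA was present before ID1 at -33 and -31, overlapping on opposite strands, and before ID4 at -29, against 10.7% of windows. Positions give the first base in the window. GC content was 69.2% for ID2, 62% for ID3, 66% for ID1 and 78.8% for ID4, beside a median of 58% over all windows. None of the 4 held the doubled core GGAAGGAA, the MYC box CACGTG or the GC-rich SMAD element GGCGCC, which 3.06%, 6.34% and 16.4% of windows held. A match describes letters only and is not evidence of binding, and the search says nothing of elements outside these windows.

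Values are FPKM, fragments relative to transcript length and library size. As deposited, the median gene of the names compared was 6.36-fold lower with YK than in control and 4.42-fold lower with knockdown than in control. Over loci without a gene name, the median log2 ratio to control was instead 0.35 with YK and 0.24 with knockdown. Each library was multiplied by the factor that brings its median named gene level with the others, 2.12 for YK, 1.44 for knockdown and 0.325 for control. Whether named genes or unnamed loci give the better scale was not tested. A log2 difference below is a difference of log2(scaled FPKM + 1), and genes with a log2 difference of 1 or more in size were called. Standard errors (SE) cover counting only, from fragments estimated by the steps in low values, not the variation among cultures. Of 12 Ewing sarcoma markers, 8 of the 10 compared were lower with knockdown, among them FLI1 itself, and none was called with YK. Of all compared names 17% were lower with knockdown, and 2.41% were higher and 1.69% lower with YK. With compared names split into 5 equal bins by mean scaled level, 4 of these 10 markers lie in the top bin and 4 in the next. In those bins 44.3% and 25.7% of names were lower with knockdown. FLI1 had 8.29 FPKM with YK, 1.48 with knockdown and 65.9 in control, at log2 differences to control of -0.27 and -2.84. CD99, a surface marker of the tumour, was listed at 0 in all 3 libraries, and no direction is drawn from it. Fibroblast markers summed to 33.3 scaled FPKM with YK, 173 with knockdown and 27.9 in control, while the 6 endothelial markers were each under 1 and summed to at most 1.499 in any library. COL3A1, in a joined locus, made up 112 of the knockdown sum.

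Levels of the 4 ID genes kept the order ID2, ID3, ID1, ID4 in every library. ID2 and ID3 were abundant, both in the top of 5 equal bins of mean scaled level that split the 9939 compared gene names, and ID1 and ID4 were scarce. Whether neighbours in this order differ beyond the spread between cultures could not be assessed with 1 library per group.

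**Figure D1:**
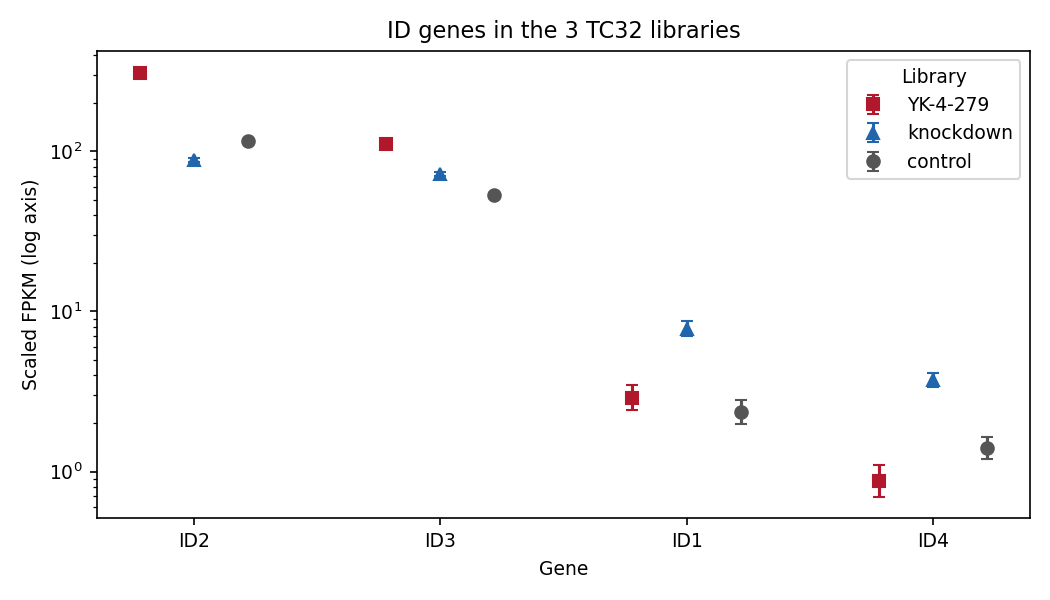
Scaled FPKM of ID2, ID3, ID1 and ID4 (log axis) in the YK, knockdown and control libraries, 1 library each, with bars for the 95% counting interval from estimated fragments. ID2 and ID3 were highest with YK, at 308 and 111, and ID1 and ID4 were highest with knockdown, at 7.80 and 3.73.

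ID2, the member that binds the retinoblastoma protein, had 145 FPKM with YK, 61.6 with knockdown and 359 in control as deposited. Scaled on the median gene, these were 308, 88.7 and 117 FPKM, resting on about 15000, 4800 and 7500 fragments. The scaled value was thus highest with YK and lowest with knockdown. ID2 was higher with YK than in control by a log2 difference of 1.39 (SE 0.02), above 98.5% of compared names. With knockdown it differed from control by -0.39 (SE 0.03), short of the threshold, and this sign turned to 0.33 when the scale was set on names of at least 10 FPKM. In such bulk RNA, fewer cells that express a gene and less of its RNA per cell cannot be told apart. Set directly against the knockdown, YK gave an ID2 log2 difference of 1.78 (SE 0.02), above 97.0% of all names and 91.5% of those in the top bin. The family was picked on this difference, so its size and its place among names follow from the pick. The same YK value enters the difference to control, so its place among names is not independent of the pick either. Abundant genes as a whole were low in the knockdown library, with a median log2 difference to control of -0.89 in the top bin. Against that median, ID2 was 0.51 higher with knockdown rather than lower, and the YK against knockdown difference came to 0.94. Rank needs no scaling: ID2 was name 305 from the top of 9939 with YK, 557 with knockdown and 679 in control.

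ID3, a close relative of ID1 that is induced with it by BMP in many cells, had 52.7 FPKM with YK, 50.2 with knockdown and 164 in control as deposited. The scaled values were 111, 72.2 and 53.3 FPKM, from about 5000, 3600 and 3100 fragments. Both treated libraries were above control on that scale. The log2 difference to control was 1.05 (SE 0.03) with YK, which lies just inside the threshold, and 0.43 (SE 0.03) with knockdown, which turned to -0.22 when the scale was set on every name above 0. Against the median of abundant genes the same values were 1.09 and 1.33. Between the 2 treatments ID3 differed by 0.62 (SE 0.03), and by -0.22 after the abundance median was taken off. By rank it stood at 688 with YK, 676 with knockdown and 1246 in control, so it was placed alike in both treated libraries.

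ID1, the founding member, which in many tissues follows BMP signalling most directly, had 1.37 FPKM with YK, 5.42 with knockdown and 7.27 in control. Scaled, these were 2.90, 7.80 and 2.36 FPKM, from about 120, 350 and 120 fragments. The knockdown library stood apart and the other two lay close together. ID1 was higher with knockdown than in control by 1.39 (SE 0.11), above 89.7% of names. With YK it differed from control by 0.21 (SE 0.14), or by -0.16 on the scale of every name above 0, and from knockdown by -1.17 (SE 0.12).

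ID4, a member best known in neural precursors and germ cells, had 0.414 FPKM with YK, 2.59 with knockdown and 4.31 in control. Scaled, it had 0.877, 3.73 and 1.40 FPKM, from about 74, 350 and 150 fragments. It was again the knockdown library that was high, with a log2 difference to control of 0.98 (SE 0.09), just outside the threshold. The difference to control with YK was -0.35 (SE 0.10), or 0.29 when deposited log2 differences were centred, and YK lay below knockdown by a log2 difference of -1.33 (SE 0.10). The added 1 weighs heavily at such levels, and with 0.1 added the YK against knockdown difference of ID4 was -1.97.

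Of the 4 members, 2 were higher with YK than in control and 0 lower, where 2.41% of all compared names were higher and 1.69% lower. ID2 is 1 of these 2, and its YK value also enters the contrast on which the family was picked. The count is therefore not independent of the pick. With knockdown, 1 was higher than control and 0 lower, against 17.3% higher and 17% lower among all names. In YK against knockdown, the contrast on which the family was picked, 1 was higher and 2 lower, against 15.3% and 14.5% of all names. The member called higher was ID2, and in its top bin 41.2% of names were called higher in that contrast. ID1 and ID4 were lower, and 20.3% and 21.6% of names in their bins were called lower. ID2 and ID3 were the members called higher with YK, and among the 1988 most abundant names 3.32% were called higher there. The directions against control rest on the scale. With no scaling, all 4 genes were lower than control with YK, by log2 differences between -1.30 and -1.91, and in the knockdown library they lay between -0.37 and -2.52. Scaled on every name above 0 in all libraries, whatever its level, ID2 and ID3 were 0.88 and 0.54 above control with YK, short of the threshold, and ID2 was lower with knockdown at -1.05. Centred deposited differences gave 0.90 and 0.58 for ID2 and ID3 with YK.

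**Figure D2:**
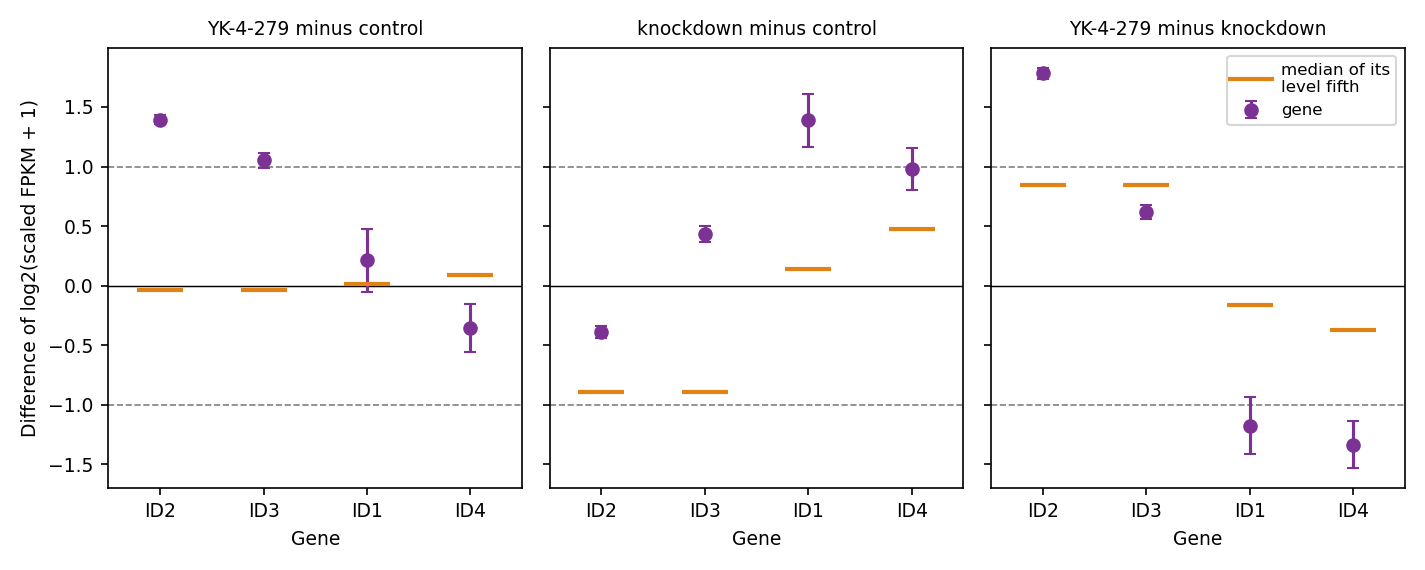
Log2 differences of the 4 ID genes in each pair of libraries (points, with bars for 95% counting intervals) beside the median of compared names in the same abundance bin (orange lines), with dashed lines at the threshold of 1. ID2 and ID3 lay at 1.39 and 1.05 in YK minus control, while ID1 and ID4 lay at 1.39 and 0.98 in knockdown minus control.

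Ratios of ID genes within a library do not depend on the factor put on each library. They do hold the shift by abundance where the 2 genes lie in different bins. For knockdown against control, the bin median was -0.89 for ID2 and ID3, 0.14 for ID1 and 0.47 for ID4. Shares of the family hold that shift as well, while ID2 and ID3 lie in the same bin. ID2 made up 72.8% of the summed FPKM of the family with YK, 51.4% with knockdown and 67.2% in control. The share of ID3 was 26.3%, 41.9% and 30.7%. ID1 held 0.685% with YK, 4.52% with knockdown and 1.36% in control, and ID4 held 0.207%, 2.16% and 0.806%. ID2 was thus 2.76 times ID3 with YK, 1.23 times ID3 with knockdown and 2.19 times ID3 in control. That ratio of ID2 to ID3 differed between YK and knockdown by a log2 difference of 1.17 (SE 0.04), between knockdown and control by -0.83 (SE 0.04) and between YK and control by 0.34 (SE 0.04). The ratio of ID2 to ID1 was 106 with YK, 11.4 with knockdown and 49.4 in control, a log2 difference of 3.22 (SE 0.16) between the treatments. The ratio of ID1 to ID4 was 3.31 with YK, 2.09 with knockdown and 1.69 in control. It differed by 0.97 (SE 0.28) between YK and control, by 0.31 (SE 0.21) between knockdown and control and by 0.66 (SE 0.24) between the treatments. The sum of the family does depend on the scale. It was 423 scaled FPKM with YK, 173 with knockdown and 174 in control, and 200 deposited FPKM with YK, 120 with knockdown and 535 in control.

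**Figure D3:**
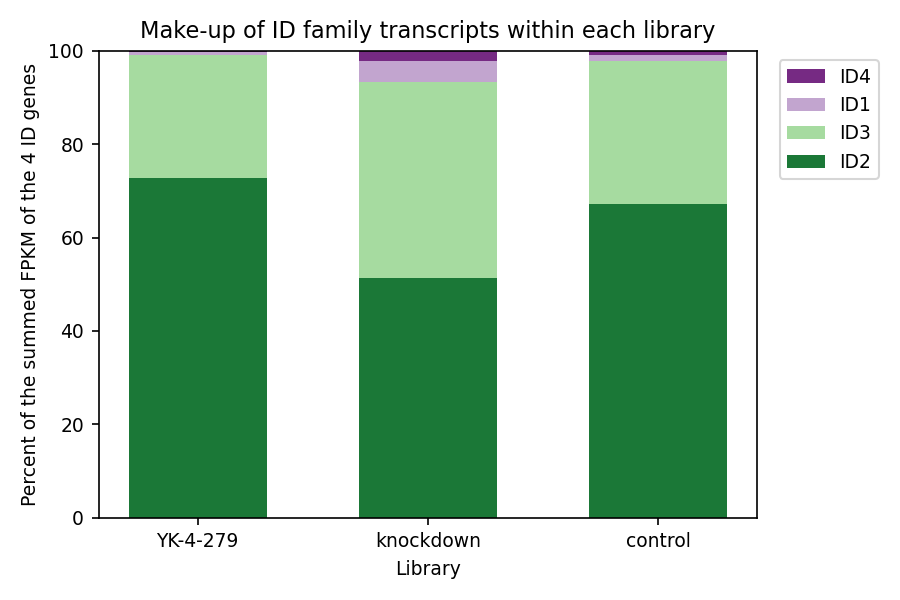
Share of each ID gene in the summed FPKM of the family (percent, stacked) in the YK, knockdown and control libraries. ID2 made up 72.8% with YK, 51.4% with knockdown and 67.2% in control, and ID1 and ID4 were visible mainly in the knockdown bar.

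The E proteins that ID proteins hold were next described. TCF12 had 24.7 FPKM with YK, 18.9 with knockdown and 190 in control, and TCF4 had 15.9, 17.5 and 89.7 FPKM. TCF3, which encodes E12 and E47, had 0.879, 2.43 and 3.81 FPKM. Of these 3 genes, 0 were called in either direction with YK against control. With knockdown against control, TCF3 was higher at a log2 difference of 1.01 and TCF12 lower at -1.15, while TCF4 stood at -0.20. TCF12 lies in the top bin, where the median was -0.89 and 44.3% of names were called lower with knockdown. TCF3 lies in the bin next to the lowest, where 27.1% were called higher, and was below control as deposited. The median of the 3 was 0.20 with YK and -0.20 with knockdown, beside 0.03 and 0.0064 for all names.

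Other factors of the helix-loop-helix class were mostly scarce in TC32, with 9 of 43 listed genes at or above a mean of 1 FPKM. With YK, 0 of the 9 were called, and with knockdown 1 was higher and 3 were lower. Among all names 17.3% were higher and 17% lower with knockdown. In the bin next to the top, which holds TWIST1 and HES6, 25.7% were lower. TWIST1, a mesenchymal regulator, had 8.09 FPKM with YK, 4.11 with knockdown and 62.5 in control, a log2 difference of -1.62 between knockdown and control. HES6, a neural factor related to the Notch effectors, was at 0.35 with YK and -1.08 with knockdown. NEUROD1, a neural factor named here after its value was seen, was at -0.99 and -1.05. It reached a mean of 1 FPKM only through the control library, so lying high there was a condition of its being compared. HEY1, a Notch and BMP effector, was at 0.78 and 1.10 but below control with knockdown as deposited, and the neural factor NEUROG2 at -0.52 and 0.82. NEUROG2 reached a mean of 1 FPKM only with both the control and the knockdown library, so a high value in each was likewise a condition.

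BMP receptors, inhibitors and targets are read beside the share of names called higher with knockdown on the same median-gene scale, 17.3% of all, 27.1% in the bin next to the lowest and 21.6% in the middle bin. Genes that reach a mean of 1 FPKM only through the knockdown library had to lie high there, and are set apart in the counts. Of 7 receptors and co-receptors compared, RGMB and BMPR1B passed only through the knockdown library. Of the other 5, 3 were higher and 0 lower with knockdown, and 0 of the 7 were called with YK. ACVR1, a type I receptor, had 1.17 FPKM with YK, 13.8 with knockdown and 4.07 in control (log2 difference to control 0.58 and 3.17). BMPR1A, another type I receptor, was at 0.39 with YK and 1.97 with knockdown, BMPR1B at 0.62 and 1.44, and the co-receptor RGMB at -0.02 and 1.58. The remaining receptor called was BMPR2, at 0.28 and 1.03. With no scaling, ACVR1, BMPR1A, BMPR1B and RGMB were still above control with knockdown, and BMPR2 was below it. Among 14 ligands, GDF6 alone had a mean of at least 1 FPKM, at log2 differences to control of 0.91 with YK and 1.804 with knockdown. The 4 SMADs compared held 0 calls in either treatment. SMAD5 had log2 differences of -0.59 with YK and -0.92 with knockdown, SMAD1 of 0.06 and -0.26, SMAD9 of -0.02 and -0.40 and the common partner SMAD4 of -0.02 and 0.64.

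Of 11 BMP antagonists and inhibitors compared, FST and SMAD7 passed only through the knockdown library. Of the other 9, 3 were higher and 0 lower with knockdown. With YK, 2 of the 11 were higher and 0 lower, against 2.41% and 1.69% of all names. The secreted glycoprotein FSTL1, measured in a locus joined with MIR198, had 11.8 FPKM with YK, 259 with knockdown and 32.8 in control (log2 difference 1.15 and 5.00). BAMBI, a decoy receptor that is itself a BMP target, was at 1.05 with YK and 2.65 with knockdown. The ligand trap FST was at 0.24 and 2.64, and the inhibitory SMAD7 at 0.30 and 1.71. TWSG1, a BMP-binding protein named after its value was seen, was at 0.08 and 1.27, and below control with knockdown as deposited. Of 10 BMP targets other than ID genes, 1 was higher and 0 lower with YK, and that gene was BAMBI, already counted among the inhibitors. With SMAD7 set apart, 5 of 9 were higher and 1 lower with knockdown, and BAMBI is among these 5 too. RUNX2, also among them, was measured in a locus joined with SUPT3H, and HEY1 was below control as deposited. The homeobox gene DLX2 was at 0.47 with YK and 2.28 with knockdown, whereas its relative DLX5 was at -0.33 and -1.55. Scarce genes as a whole were somewhat high with knockdown, with a median of 0.40 in the lowest bin. Of the 6 fibroblast markers compared, COL1A1 passed only through the knockdown library. Of the other 5, 4 were higher and 1 lower with knockdown, against 17.3% and 17% of all names. LUM, among those higher, was below control as deposited. The part of fibroblast markers in the values above was not tested.

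Genes that act with or after ID proteins followed. CDKN1C, the CDK inhibitor p57, which E proteins activate, had 0.169 FPKM with YK, 4.08 with knockdown and 0.924 in control (log2 difference to control 0.06 and 2.40). It passed the filter only through the knockdown library, so a high value there was a condition of its being shown. CDKN1A, CDKN2A and CDKN2B had a mean below 1 FPKM and were not compared. Of the retinoblastoma family, RBL2 was higher with knockdown at 1.36, though below control as deposited, and stood at 0.24 with YK. RB1 was at -0.0041 with YK and 0.55 with knockdown, and RBL1 at 0.03 and 0.09. Of 15 genes of the ubiquitin enzymes that act on ID proteins, mostly the anaphase-promoting complex, 0 were called with YK, and 6 were lower and 0 higher with knockdown, with medians of -0.11 and -0.92. Of these 15 genes, 7 lie in the top bin and 5 in the next, where 44.3% and 25.7% of all names were called lower with knockdown, so the count is near that of abundant genes in general. CDC26, CDC23 and CDC20 belong to the top bin of names, whose median in the knockdown library was itself -0.89. CDC26 was at -0.13 with YK and -1.49 with knockdown, CDC23 at -0.46 and -1.42, ANAPC4 at -0.42 and -1.41 and the activator CDC20 at 0.74 and -0.95.

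Transcription factors known to act on ID genes had 0 of 7 called with YK, and 3 higher and 0 lower with knockdown, of which EGR1 and ATF3 passed the filter only through the knockdown library. Of the other 5, 1 was higher, near the share of 17.3% over all names. The bin next to the lowest, where 27.1% of names were higher, holds 4 of the 7. EGR1, an immediate early activator, had 0.632 FPKM with YK, 4.91 with knockdown and 0.854 in control (log2 difference to control 0.87 and 2.66). ATF3, a stress factor known as a repressor of ID1 downstream of TGF-beta, was at 0.06 with YK and 2.24 with knockdown. FOXO1 was at 0.61 and 2.38, and FOXO3 at -0.30 and 0.94.

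**Figure D4:**
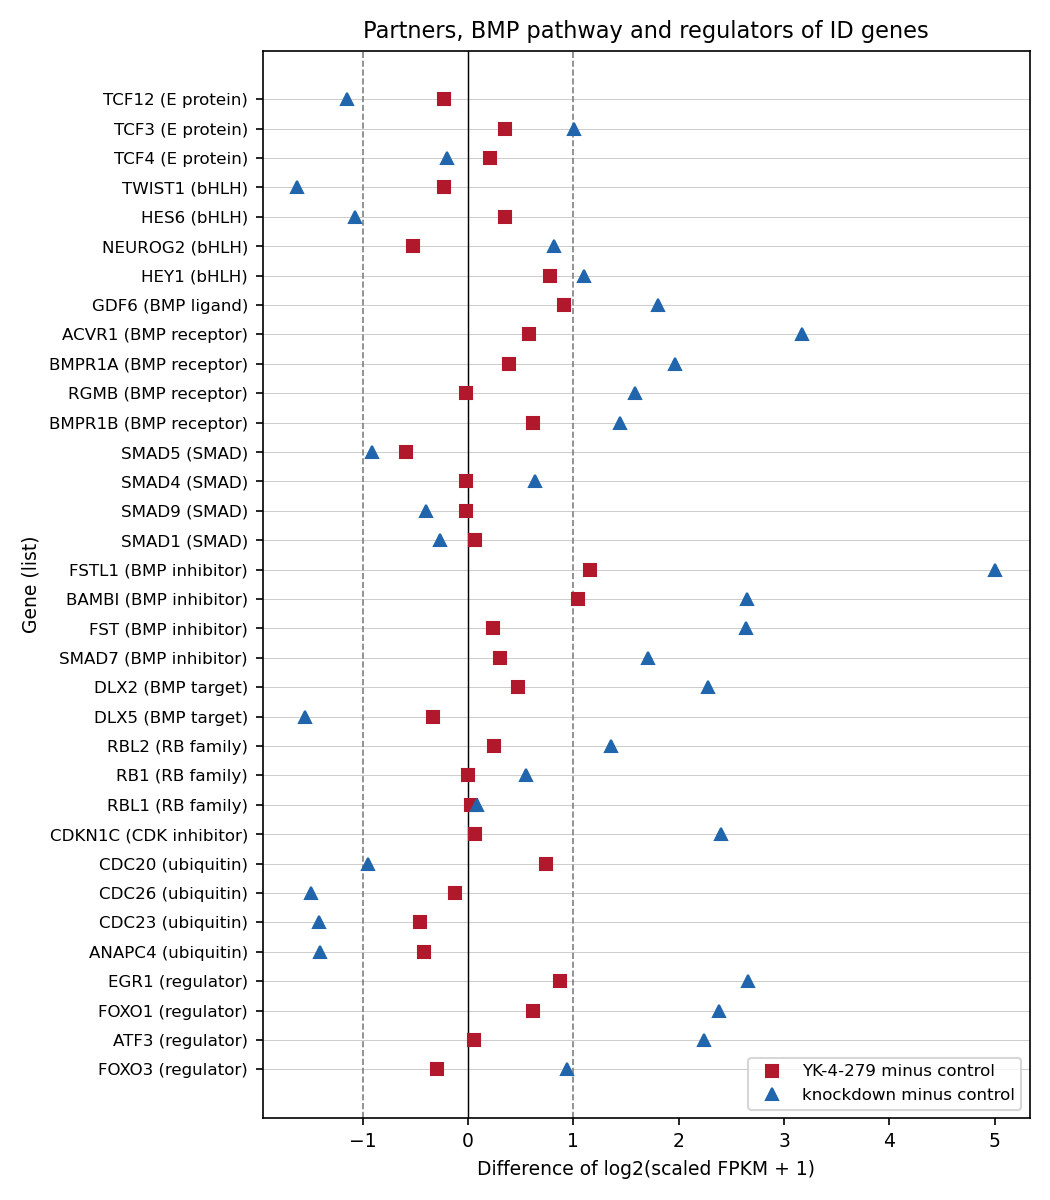
Log2 differences to control of the partners, BMP pathway genes and regulators named by rule, for YK (red squares) and knockdown (blue triangles), which share the control library. Dashed lines mark the threshold of 1, and ACVR1 lay at 0.58 with YK and 3.17 with knockdown.

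Among the other compared names, those nearest in pattern over the 3 libraries were found by Euclidean distance in centred log2(scaled FPKM + 1). Nearest to ID2 were RPL39L, ZNF468 and SNORA71D, at distances of 0.084, 0.095 and 0.13. For ID3 the nearest were GUSBP3, ZNF582-AS1 and SNORA58, at 0.048 to 0.071. Those of ID1 were SLC19A2, CTDSPL and SLC39A13, at 0.0067 to 0.016, and of ID4 WSB2, DIAPH1 and MAP2K2, at 0.011 to 0.019. Within the family the distance was 0.41 between ID1 and ID4 and 0.85 between ID2 and ID3, and it was 1.27 to 2.21 across these pairs. With 3 libraries many names share any given pattern.

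**Figure D5:**
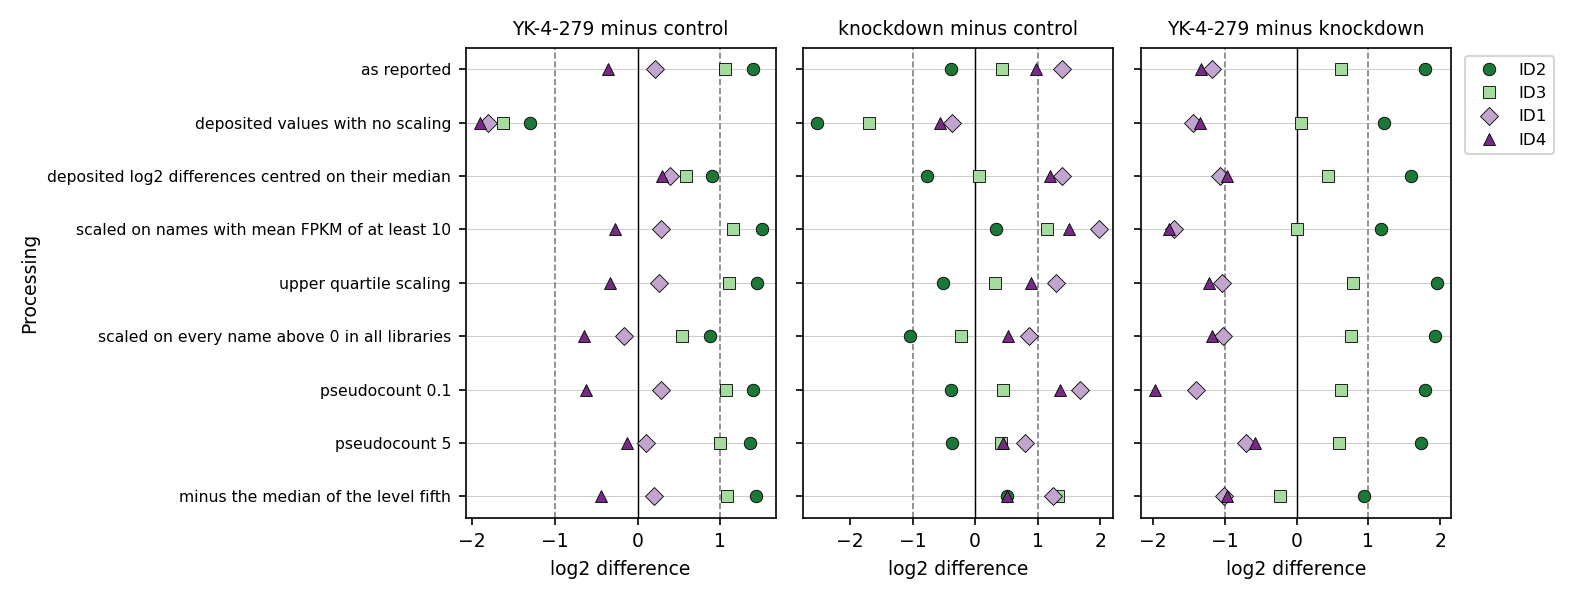
Log2 differences of ID2, ID3, ID1 and ID4 in each pair of libraries as reported (top row) and under 8 other ways of processing, with dashed lines at 1. Against control, the row with no scaling puts all 4 genes below 0, while YK minus knockdown keeps ID2 between 0.94 and 1.95.

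A pseudogene copy of ID2, ID2B, is annotated, and the antisense gene ID2-AS1 overlaps the longest annotated ID2 transcript. How the authors assigned reads shared with either is not given in the sources used here, so some reads counted for ID2 may come from them.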

How the data were processed

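Per the labels' protocols, total RNA was turned into cDNA with a SMARTer PCR kit and fragmented in a Bioruptor before adapters were ligated. The authors deposited FPKM for 88434 loci per library, of which 24751 carry a gene name. CASAVA 1.8.2, TopHat, Cufflinks 2.2.1 and build GRCh37 (hg19) are listed, per the submitters' processing notes. The sources used here do not state the annotation, any scaling between libraries, strand use or the treatment of multiply mapped reads.

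Loci of 1 name were summed (Python 3.11.15, pandas 2.3.3, numpy 2.4.6), which gave 22714 names, and the 9939 with a mean deposited FPKM of at least 1 were compared. Listed symbols were taken under their own name or else in a comma-joined locus. Library factors are the inverse of the median ratio to the geometric mean over the 9883 compared names above 0 in all libraries. The scaling was also run on simulated data in which a small set of names was shifted, in the YK library alone. That setting lacks the shift by abundance seen in the knockdown library, so it cannot show that the scale suits these data. The members, lists and scale were chosen with earlier results of these data known. Genes named are the members, up to 4 genes of each of 11 pathway lists with the greatest difference in any comparison, any called gene of a short list, and the 3 nearest names in pattern of each member.

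Depth is not recorded in the files. The worth of 1 fragment in 1 kb was estimated as 0.0132 FPKM with YK, 0.0174 with knockdown and 0.0654 in control, from the lowest values of olfactory receptor genes with 1 transcript in GENCODE release 29 and from the main step in ratios of unnamed loci. Fragments of the ID genes follow from these and their median coding transcript length, are approximate, and cover counting error only. Promoters came from RefSeq tables of GRCh38.p14, and none of their coordinates were joined to the authors' loci.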

Additional observations from a re-analysis of the deposited data

Results flagged for a closer look

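ID2 and ID4 moved in opposite directions against the shared control library, and the difference between the treatments was not tested, there being 1 library each. ID2 was at a log2 difference of 1.39 with YK and -0.39 with knockdown, and ID4 at -0.35 with YK and 0.98 with knockdown. Against the median of genes of like abundance, ID2 was above control in both, at 1.43 and 0.51, while ID4 was at -0.44 and 0.51. ID4 had the same sign in both treatments with deposited log2 differences centred, at 0.29 and 1.19, and with no scaling, at -1.91 and -0.56.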

How the results depend on the processing

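Values follow the order YK against control, knockdown against control and YK against knockdown. With no scaling, ID2 came to -1.30, -2.52 and 1.22, ID1 with knockdown reversed to -0.37 and ID3 with YK to -1.62. Members called were then 0 higher and 4 lower with YK, and 0 higher and 2 lower with knockdown. All names called were 57 higher and 9160 lower with YK, 301 higher and 7094 lower with knockdown, and 505 higher in YK against knockdown. With deposited log2 differences centred on their median, ID2 came to 0.90, -0.77 and 1.60. Members higher were 0 and 2 against control, 1 was lower between treatments, and all names were 1225 higher and 446 lower with YK. Scaled on names of at least 10 FPKM, ID2 came to 1.4996, 0.33 and 1.17, and 3 members were higher with knockdown. Upper quartile scaling gave 1.44, -0.51 and 1.95 for ID2. Scaled on every name above 0 in all libraries, an alternative chosen after seeing the data, ID2 came to 0.88, -1.05 and 1.92. Members higher against control were then 0 with YK and 0 with knockdown, 1 was lower with knockdown, and all names were 155 higher and 813 lower with YK and 911 higher and 3358 lower with knockdown. Less the median of like abundance, ID2 came to 0.51 with knockdown and 0.94 between treatments, with 2 members higher with knockdown, and 0 higher and 1 lower between treatments.

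Adding 0.1 gave 2 members higher with knockdown, and 629 names higher and 288 lower with YK. Adding 5 left 1 member higher with YK, 0 higher with knockdown and 0 lower between treatments. A threshold of 1.5-fold gave 2 members higher with knockdown and 2 higher between treatments. At 4-fold, 0 members were higher in each of the 3 comparisons and 0 lower between treatments. With no filter on low values 363 names were higher with YK. With a mean of at least 5 FPKM, names called were 154 higher with YK, 1116 higher and 668 lower with knockdown, and 699 higher between treatments. The cause of these shifts was not tested. No paired analysis was possible because each group has 1 library. Estimated depth leaves ID1 and ID4 on few fragments, and no value holds the spread between cultures.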
